A study of Mus musculus with 2 samples.

Results

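The genes described here are 36 genes of protein folding, quality control and stress sensing in the endoplasmic reticulum (ER), measured by RNA-seq in mouse embryonic stem cells. They were chosen by symbol, with earlier results of these data known. Each deposited RefSeq transcript was given its gene symbol, and a gene was represented by its transcript with the highest value summed over both libraries. All 36 were found among 22421 genes, and all 36 had a mean of at least 1 RPKM, the level required for a comparison, as did 11802 genes in all. RPKM is the read number scaled to transcript length and library depth.

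The cells were CGR8, an established mouse embryonic stem cell line grown on gelatin without feeder cells, in medium with serum and LIF (leukaemia inhibitory factor). One group received a negative control siRNA and the other an siRNA against Set1a, with a labelled time of 72 hours and 2 rounds of transfection, and no other treatment or genotype is labelled. Each group held 1 library, so no difference below has a replicate check and none has a p-value. Neither the siRNA sequence nor the SET1A protein left after transfection is given by the labels. The design text states that the aim was to learn how SET1A affects expression genome-wide.

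The ER folds and modifies proteins bound for the cell surface, the secretory pathway and the extracellular space. When unfolded proteins accumulate there, 3 sensors in the ER membrane start the unfolded protein response (UPR): ATF6 and IRE1 (gene Ern1), through the transcription factor XBP1, raise transcription of chaperone and degradation genes, whereas PERK (gene Eif2ak3) slows translation and favours ATF4, which drives amino acid and stress genes. Each arm has its own characteristic targets, and many chaperone genes share one promoter sequence, the ER stress element.

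Depth recovered from the values was about 6660000 reads in the control and 6400000 in the Set1a siRNA library. Setd1a, the targeted gene, was at 14.2 RPKM with the control siRNA and 11.97 RPKM with the Set1a siRNA, which makes a ratio of 0.846 with a 95% counting interval of 0.745 to 0.958. The lower value is in the direction of the label, and most of the transcript remained. Setd1a had a log2 fold of -0.22, too small to be called lower by the size rule given below. A lower fold than that of Setd1a was found for 15.1% of all genes. The pluripotency markers fixed for this comparison were all above 1 RPKM, with sums of 4111 RPKM in the control and 3780 RPKM in the Set1a siRNA library. Most of that difference lay in Dppa5a, at 2004 and 1692 RPKM, and the median log2 fold of these markers was -0.01.

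Most of the ER genes were slightly higher in the Set1a siRNA library. Because the genes were chosen with earlier results of these data known, the shares below only describe the list. Of the 36, 26 (72.2%) had a higher value, where 51.2% of all genes did, and 10 had a lower value. The 26 include Derl2, which was higher by only 0.00025 RPKM. The median log2 fold was 0.13, against 0.0063 over all genes. For these folds 1 RPKM was added to each value before log2(Set1a siRNA/control siRNA) was taken, so that changes of low genes are understated. A gene was called higher or lower past a log2 fold of 0.32 in either direction, which is 25% higher or 20% lower. Called higher were 8 of the 36 (22.2%), where 10.4% of all genes passed that size. Called lower was 1 of the 36 (2.78%), where 8.14% of all genes did. None reached 2-fold, a size passed upward by 0.771% and downward by 0.407% of all genes. Summed over the 36 genes, levels were 1376 RPKM with the control siRNA and 1561 RPKM with the Set1a siRNA, a ratio of 1.13, where the sum over all genes had a ratio of 0.990. Abundant genes weigh most in this sum. The largest differences were those of Calr, Hspa5, Hsp90b1 and Pdia6, higher by 39.9, 33.8, 27.4 and 23.9 RPKM.

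**Figure D1:**
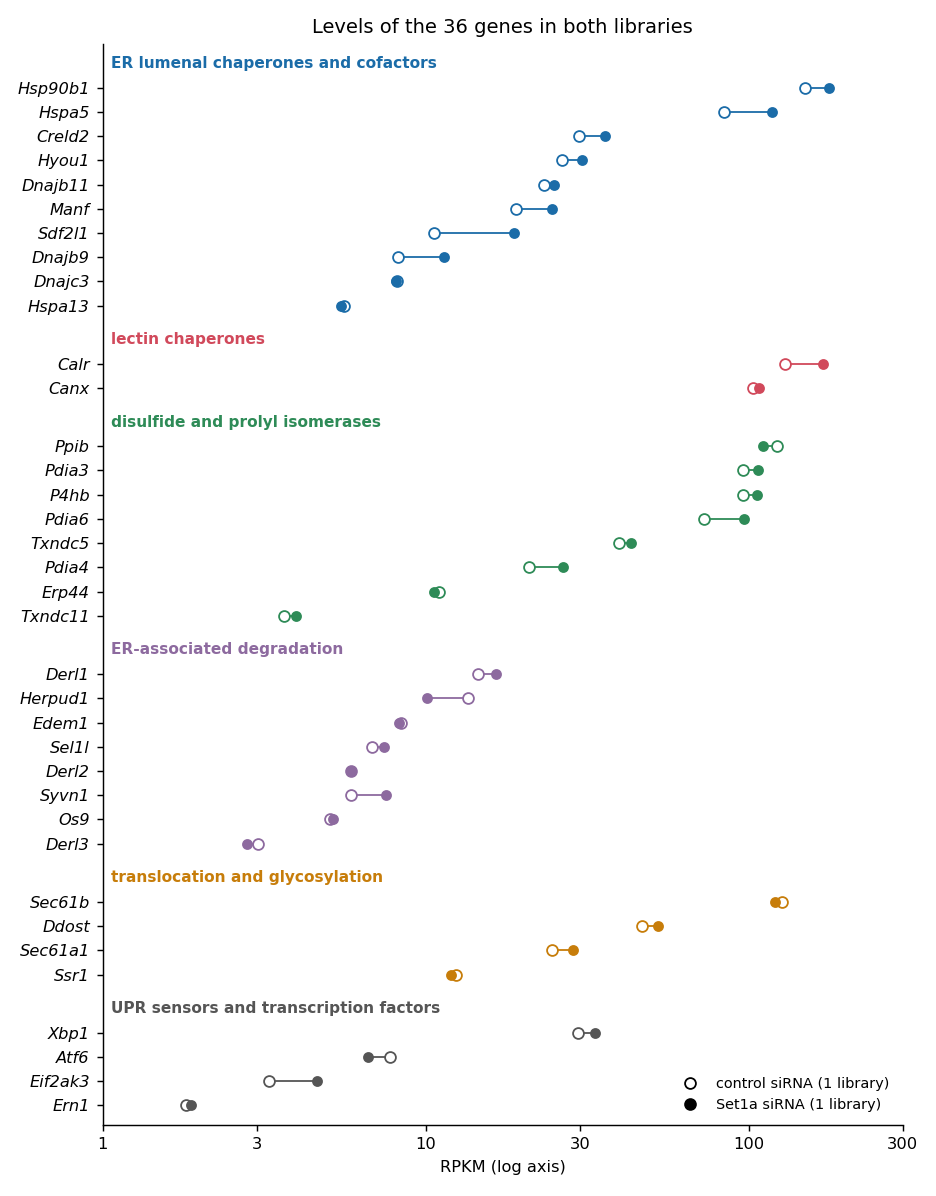
RPKM (log axis) of the 36 genes by role, with an open point for the control siRNA library and a filled point for the Set1a siRNA library. Levels in the control ran from 1.81 RPKM for Ern1 to 149.9 RPKM for Hsp90b1. The filled point lies to the right for 26 genes, for Derl2 by only 0.00025 RPKM.

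Levels covered a wide range. The most abundant transcripts per length in the control library were Hsp90b1, Calr, Sec61b, Ppib and Canx, all above 100 RPKM, and the least abundant were the sensor gene Ern1, Derl3 and Eif2ak3. The 18 genes with the higher mean levels had a median log2 fold of 0.18, and the 18 with the lower levels had 0.01. At a mean of at least 20 RPKM, where counting error is small, 5 of 18 members were called higher, against 4.21% of the genes at that level, and 0 were called lower, against 4.86%. Manf entered this group through its Set1a siRNA value, as its control level was 19.0 RPKM.

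A counting interval, the exact 95% range of the ratio given the recovered reads, excluded 1 upward for 16 of the 36 genes and downward for 2. Over all genes 12.2% had an interval above 1 and 11.3% below. Deeply counted genes have narrow intervals, so the comparison at a mean of at least 20 RPKM is closer: 12 of 18 members had an interval above 1 and 0 below, against 17.0% and 20.5% of genes at that level. Intervals cover counting error only and leave out any difference between cultures.

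**Figure D2:**
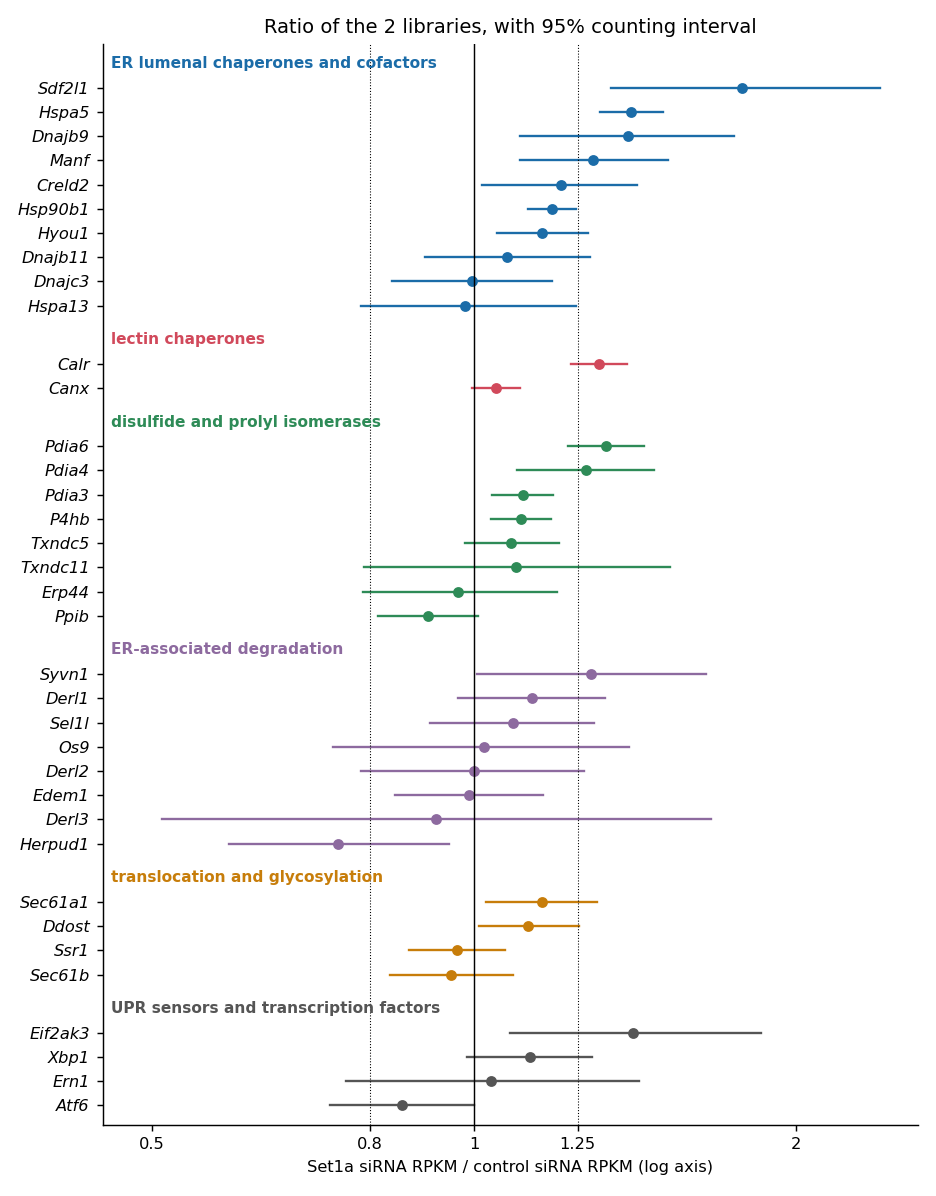
Ratio of Set1a siRNA to control siRNA RPKM (log axis) for each of the 36 genes, with bars for the 95% counting interval and dotted lines 25% above and 20% below 1. Sdf2l1 lies farthest to the right at 1.78 and Herpud1 farthest to the left at 0.747; Syvn1 lies past the dotted line as a ratio but was not called, because 1 RPKM is added to both values for the call.

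The ER stress element joins a CCAAT box, bound by NF-Y, to a CCACG half-site, bound by ATF6 or XBP1. Promoters from RefSeq (build GRCm38.p6, 250 bases before to 50 bases after the annotated start) were found for 30 of the 36 genes, and Atf6, Derl1, Hspa13, Hyou1, Manf and Sec61a1 had none. The element ERSE, CCAAT and CCACG with any 9 bases between them, was searched on both strands. It was present in 9 of the 30 genes (30%). Over all 27025 genes with a promoter it was present in 0.137% (0.119% of 32851 promoters of the same length). Many chaperone genes are known to share this element, so the higher share among members is no separate result. The shorter ERSE-II, ATTGG and CCACG with any 1 base between them, was present in 2 of the 30, Herpud1 and Dnajb11. It was present in 0.0444% of all genes (0.0365% of promoters). The XBP1 element UPRE, TGACGTGG, was present in 2, Txndc5 and Txndc11, and in 0.714% of all genes (0.676% of promoters). No member held more than 1 kind of element, and Hsp90b1 held ERSE at 2 places. A match describes the letters of this window and shows no binding.

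The promoter of Hspa5, the gene of the chaperone BiP, is shown first because it is the textbook promoter of the UPR. These are the 250 bases before its start, with the ERSE in capitals at -65 to -47 from the start.
Hspa5, chr2:34771840-34772089, plus strand: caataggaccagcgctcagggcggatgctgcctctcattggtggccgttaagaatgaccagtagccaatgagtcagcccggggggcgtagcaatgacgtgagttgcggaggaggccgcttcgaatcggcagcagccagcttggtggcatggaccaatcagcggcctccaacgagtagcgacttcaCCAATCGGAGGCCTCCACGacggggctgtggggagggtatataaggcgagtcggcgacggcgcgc

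The next lines show the ERSE with up to 20 bases on either side in 5 further genes with higher values in the Set1a siRNA library, each read along the gene's own strand. In Calr, Creld2 and the second Hsp90b1 match the element lies on the opposite strand, so the capitals begin with CGTGG and end with ATTGG.
Pdia6, chr12:17266471-17266529, plus strand: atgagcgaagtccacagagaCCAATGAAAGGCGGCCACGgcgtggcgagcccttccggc
Calr, chr8:84847055-84847113, minus strand: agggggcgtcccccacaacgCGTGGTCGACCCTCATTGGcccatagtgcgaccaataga
Syvn1, chr19:6046512-6046570, plus strand: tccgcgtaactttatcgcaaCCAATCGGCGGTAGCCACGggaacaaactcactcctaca
Creld2, chr15:88819500-88819558, plus strand: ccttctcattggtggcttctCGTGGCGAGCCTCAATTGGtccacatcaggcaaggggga
Hsp90b1, first match, chr10:86705618-86705676, minus strand: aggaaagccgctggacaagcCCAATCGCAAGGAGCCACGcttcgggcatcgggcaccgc
Hsp90b1, second match, chr10:86705513-86705571, minus strand: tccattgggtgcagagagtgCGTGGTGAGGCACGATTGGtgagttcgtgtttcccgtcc

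The ERSE also stood in 3 genes whose counting intervals included 1, and Herpud1, the gene that was lower, carried the ERSE-II. The first 3 are shown because they carry the ERSE of the genes above at other ratios, and Herpud1 for its different element. These 4 were chosen for display after their values were seen.
Canx, chr11:50325780-50325838, minus strand: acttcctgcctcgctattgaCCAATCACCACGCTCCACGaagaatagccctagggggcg
Dnajc3, chr14:118937807-118937865, plus strand: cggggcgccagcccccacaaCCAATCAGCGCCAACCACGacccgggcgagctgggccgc
Derl3, chr10:75893222-75893280, plus strand: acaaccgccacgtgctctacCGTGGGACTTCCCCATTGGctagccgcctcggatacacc
Herpud1 (ERSE-II), chr8:94386357-94386407, plus strand: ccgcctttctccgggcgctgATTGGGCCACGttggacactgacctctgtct

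Of the 9 members with an ERSE, 7 were higher and 3 of these (Hspa5, Pdia6 and Calr) were called higher, with a median log2 fold of 0.26. Of the 21 members with a promoter but no ERSE, 4 were called higher and 1 lower, with a median of 0.10. These 21 are not free of stress elements. They include Herpud1, the gene called lower, and Dnajb11, both with an ERSE-II, and Txndc5 and Txndc11, both with a UPRE. Among all genes, 51.2% were higher, 10.4% were called higher and 8.14% lower. The element did not sort the members into separate ranges, as Sdf2l1, Dnajb9, Pdia4 and Eif2ak3 were higher without an exact match in this window and Canx, Dnajc3 and Derl3 had a match with ratios near or below 1. Outside the members, 28 other genes held an ERSE. The 11 of these above 1 RPKM had a median of 0.03, with 1 called higher and 2 called lower.

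**Figure D3:**
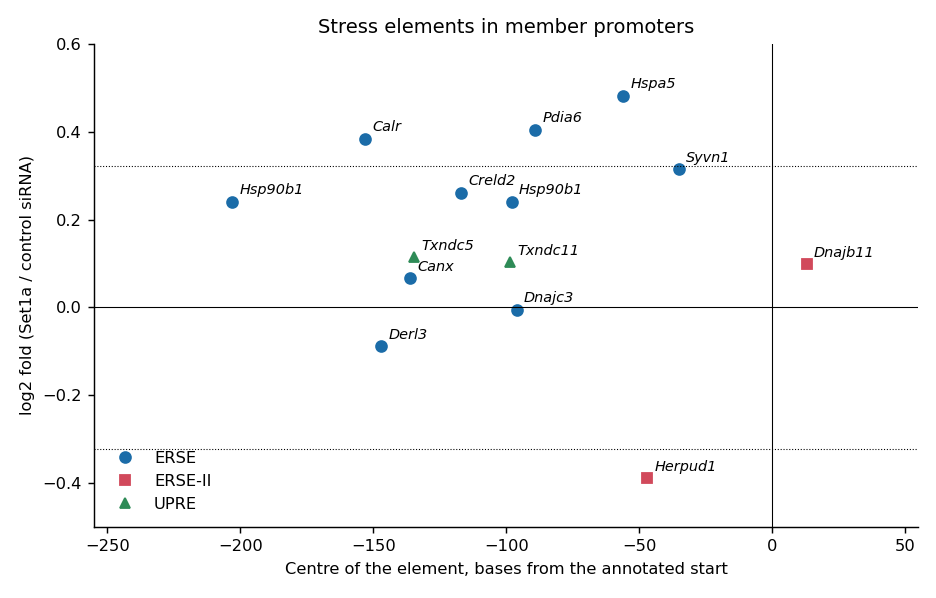
Log2 fold of each member with a promoter element against the distance of the element's centre from the annotated start in bases, with circles for ERSE, squares for ERSE-II, triangles for UPRE and dotted lines at the call size of 0.32 either way. All ERSE matches lie between -212 and -26; their genes run from Hspa5 at 0.48 to Derl3 at -0.09, and Hsp90b1 appears at both of its matches.

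Chaperones of the ER lumen were the group with the largest shift. Of 10 genes, 8 were higher, 4 of them called higher, and 0 were called lower, with a median log2 fold of 0.25. Over all genes, 51.2% were higher, 10.4% were called higher and 8.14% lower. Hspa5 encodes BiP, the Hsp70 of the ER, which binds unfolded chains and keeps the sensors inactive. Its level was 84.1 RPKM with the control siRNA and 117.9 RPKM with the Set1a siRNA, which makes a ratio of 1.40 (counting interval 1.31 to 1.501). Its 2 listed transcripts had the same ratio, 1.40. Both are 2613 bases long with similar read numbers and may share most reads, so the equal ratios are no separate check. Sdf2l1, which encodes a partner of the J protein ERdj3, had the largest ratio of all 36 genes, 1.78 (1.34 to 2.40), from 10.6 and 18.8 RPKM and 78 and 134 reads.

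The cofactors of BiP differed among themselves. Dnajb9 encodes the inducible J protein ERdj4 and was at 8.22 and 11.4 RPKM, with a ratio of 1.39 (1.10 to 1.75). Manf encodes a BiP-binding protein that is also secreted, and it was at 19.0 and 24.6 RPKM, with a ratio of 1.29 (1.10 to 1.52). In contrast, the J protein gene Dnajb11 (ERdj3) was at 23.3 and 24.97 RPKM with an interval of 0.899 to 1.28. Dnajc3, which encodes the J protein p58IPK, was at 8.14 and 8.10 RPKM, with an interval of 0.839 to 1.18. Of the 3 J protein genes, Dnajb9 alone had an interval above 1.

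Hsp90b1 encodes GRP94, the Hsp90 of the ER, and was the most abundant of the 36. It was at 149.9 and 177.4 RPKM, with a ratio of 1.18 (1.12 to 1.245). Hyou1, an exchange factor for BiP, was at 26.4 and 30.6 RPKM, with a ratio of 1.16 (1.05 to 1.28). Creld2, a stress-inducible ER protein gene, was at 29.7 and 35.9 RPKM, with a ratio of 1.21 (1.02 to 1.42). These 3 were not called, and their intervals lay above 1. Hspa13, for an Hsp70-like ATPase of microsomes, was at 5.58 and 5.48 RPKM, with an interval of 0.784 to 1.24.

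The lectin chaperones hold glycoproteins that carry a trimmed sugar until they fold. Calr, for the soluble calreticulin, was at 129.8 and 169.8 RPKM, with a ratio of 1.31 (1.23 to 1.39). Canx, for its membrane-bound relative calnexin, was at 102.9 and 107.8 RPKM, with a ratio of 1.05 (0.995 to 1.10). The intervals of these genes do not overlap. All 3 listed Canx transcripts had a ratio of 1.05, but each is 4281 bases long and they may share most reads.

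Among the isomerases, which form and rearrange disulfide bonds or turn prolines, 6 of 8 were higher, 2 of them called higher, with a median of 0.13. These counts stand beside all-gene shares of 51.2% higher and 10.4% called higher. Pdia6 was at 72.8 and 96.7 RPKM, with a ratio of 1.33 (1.23 to 1.44), and Pdia4 at 20.9 and 26.6 RPKM, with a ratio of 1.27 (1.10 to 1.47). Both encode multi-domain disulfide isomerases found with BiP. Pdia3, the partner of the lectin chaperones, had a smaller ratio of 1.11 (1.04 to 1.19), from 96.3 and 106.9 RPKM. P4hb encodes the classical protein disulfide isomerase, also a subunit of collagen prolyl hydroxylase, and was at 95.7 and 105.9 RPKM with a ratio of 1.11 (1.04 to 1.18).

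The other isomerase genes had intervals that included 1. Txndc5 was at 39.8 and 43.1 RPKM, Txndc11 at 3.63 and 3.98 RPKM, and Erp44, which retains oxidases in the early secretory pathway, at 11.0 and 10.7 RPKM. Ppib, for the ER cyclophilin B, was at 122.4 and 111.0 RPKM, with a ratio of 0.907 (0.813 to 1.01). Of the 8 members with more than 1 listed transcript, Txndc11 had transcripts on different sides of 1, with ratios of 1.09 and 0.926, as did Os9, with 1.02 and 0.998.

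ER-associated degradation, which returns misfolded proteins to the cytosol for the proteasome, had a median of 0.01, near that of all genes. Of 8 genes, 5 were higher, among them Derl2 by only 0.00025 RPKM, and 3 were lower. Called higher were 0 and called lower was 1. With so few genes these counts are close to the shares of all genes, 10.4% and 8.14%, and a difference from the other role groups was not tested. Syvn1 encodes the ubiquitin ligase HRD1 and was at 5.86 and 7.53 RPKM, with a ratio of 1.29 (1.01 to 1.65) that rested on 123 and 152 reads. Sel1l, the adaptor of HRD1, was at 6.84 and 7.45 RPKM, with an interval of 0.910 to 1.29.

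Herpud1 was the member with the largest lower value. It encodes HERP, a membrane protein of the HRD1 complex whose gene is known to respond to ATF6, XBP1 and ATF4. Its level was 13.5 RPKM with the control siRNA and 10.1 RPKM with the Set1a siRNA, a ratio of 0.747 (0.591 to 0.948), from 175 and 126 reads. Only 5.5% of all genes had a lower fold.

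The derlins, membrane proteins thought to form part of the export channel, were at 14.6 and 16.5 RPKM for Derl1, 5.89 in both libraries for Derl2, and 3.04 and 2.80 RPKM for Derl3. Derl3 had 27 and 24 reads, so its interval of 0.511 to 1.67 leaves a wide range. Among the members, the lectins that select glycoproteins for degradation, Edem1 and Os9, were close to 1. Edem1 was at 8.39 and 8.29 RPKM and Os9 at 5.07 and 5.17 RPKM.

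Of the 4 translocation and glycosylation genes, 2 were higher and 2 lower, and none was called. Over all genes, 51.2% were higher, 10.4% were called higher and 8.14% lower. Sec61a1, the pore subunit of the translocon, had a ratio of 1.16 (1.03 to 1.304), from 24.7 and 28.5 RPKM. Ddost, a subunit of the oligosaccharyltransferase, had a ratio of 1.12 (1.01 to 1.252), from 46.7 and 52.5 RPKM. Sec61b, a small translocon subunit, was at 126.8 and 120.8 RPKM, and Ssr1, of the translocon-associated complex, at 12.4 and 11.98 RPKM. The intervals of Sec61b (0.835 to 1.09) and Ssr1 (0.871 to 1.07) included 1, so neither gene can be placed below 1. The interval of Sec61b overlapped that of Sec61a1, so a difference between these translocon subunits is not shown.

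The sensors themselves went in different directions. Eif2ak3, for PERK, was at 3.28 and 4.61 RPKM, with a ratio of 1.41 (1.08 to 1.85), from 98 and 133 reads. Atf6 was at 7.75 and 6.64 RPKM, with a ratio of 0.856 (0.735 to 0.999), an interval that reached almost to 1. Ern1, for IRE1, was at 1.81 and 1.88 RPKM, with an interval of 0.760 to 1.43. Xbp1 was at 29.7 and 33.5 RPKM, with a ratio of 1.13 (0.985 to 1.29). IRE1 acts by splicing the Xbp1 transcript, and a value per transcript does not separate the spliced from the unspliced form.

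The rest of the pathway was described with lists of other genes. Over all genes, 10.4% were called higher and 8.14% lower. Of 35 other ER folding genes, 33 were above 1 RPKM, 3 (9.1%) were called higher and 2 lower, with a median of 0.09. Pdia5, another disulfide isomerase, was at 3.41 and 6.80 RPKM, with a ratio of 1.997 (1.36 to 3.0) from 41 and 79 reads. P4ha1, a subunit of collagen prolyl hydroxylase, had a ratio of 1.498 (1.247 to 1.80), and Ero1a, the main oxidase of disulfide formation, of 1.34 (1.20 to 1.51); both genes are also known to respond to hypoxia. The lower genes were the prolyl isomerase gene Fkbp2, with a ratio of 0.704 (0.492 to 1.01), and Sdf2, with 0.711 (0.574 to 0.874). Ero1a and Sdf2 lay outside the naming rule and are given as the remaining genes of these counts.

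Other components of the ER machinery stayed closer to all genes. Of 21 other translocon, signal peptidase and oligosaccharyltransferase genes, 1 was called higher and 1 lower, with a median of 0.07. These were Ostc, with a ratio of 1.31 (1.13 to 1.52), and Sec11c, with 0.755 (0.531 to 1.08). Of 19 other degradation genes, 0 were called higher and 1 lower, with a median of 0.06. The lower one was Erlec1, a lectin gene, with a ratio of 0.635 (0.421 to 0.953). The ATPase gene Vcp, which extracts proteins from the ER, was at 119.8 and 117.9 RPKM and was chosen after its values were seen.

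Transport from the ER to the Golgi and back showed small differences mostly in 1 direction. Of 18 genes, 16 (88.9%) were higher, where 51.2% of all genes were, and 2 were lower, with a median of 0.12. Only 2 (11.1%) were called higher, near the 10.4% of all genes. Kdelr3, a receptor that returns escaped chaperones to the ER, was at 7.01 and 11.7 RPKM, with a ratio of 1.67 (1.21 to 2.29). Sar1a, a GTPase of COPII vesicle budding, was at 31.0 and 42.3 RPKM, with a ratio of 1.36 (1.22 to 1.53). Lman1, a cargo receptor, was the lowest, with a ratio of 0.807 (0.742 to 0.878), and was not called. Of 17 other UPR regulators, 15 were above 1 RPKM, 0 were called higher and 1 lower, with a median of 0.01. That gene was Mbtps2, for the site-2 protease that cleaves ATF6, with a ratio of 0.763 (0.633 to 0.917).

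Most genes listed for the PERK and ATF4 arm lay on the other side of 1. Of 20 genes, 19 were above 1 RPKM, and the median log2 fold was -0.42. Called lower were 10 and called higher was 1, where 8.14% and 10.4% of all genes were. The gene called higher was Ddit4, with a ratio of 1.485 (1.289 to 1.713). Ddit3, with 0.803 (0.553 to 1.146), and Ppp1r15a, with 1.053 (0.881 to 1.259), had intervals that included 1. Ddit4, Ddit3 and Ppp1r15a lay outside the naming rule. Nupr1, a stress-inducible nuclear protein gene, had a ratio of 0.403 (0.313 to 0.517), Cebpb of 0.473 (0.269 to 0.812) and Chac1, a glutathione-degrading enzyme gene, of 0.540 (0.421 to 0.685). Atf4 itself was at 105.6 and 78.9 RPKM, with a ratio of 0.748 (0.684 to 0.816), and was chosen after its values were seen. Eif2ak3 was higher while 16 of the 19 genes of this list were lower, and the activity of PERK was not measured. The low values of this arm and the higher values of several chaperones were known from earlier results of these data when the lists were made.

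**Figure D4:**
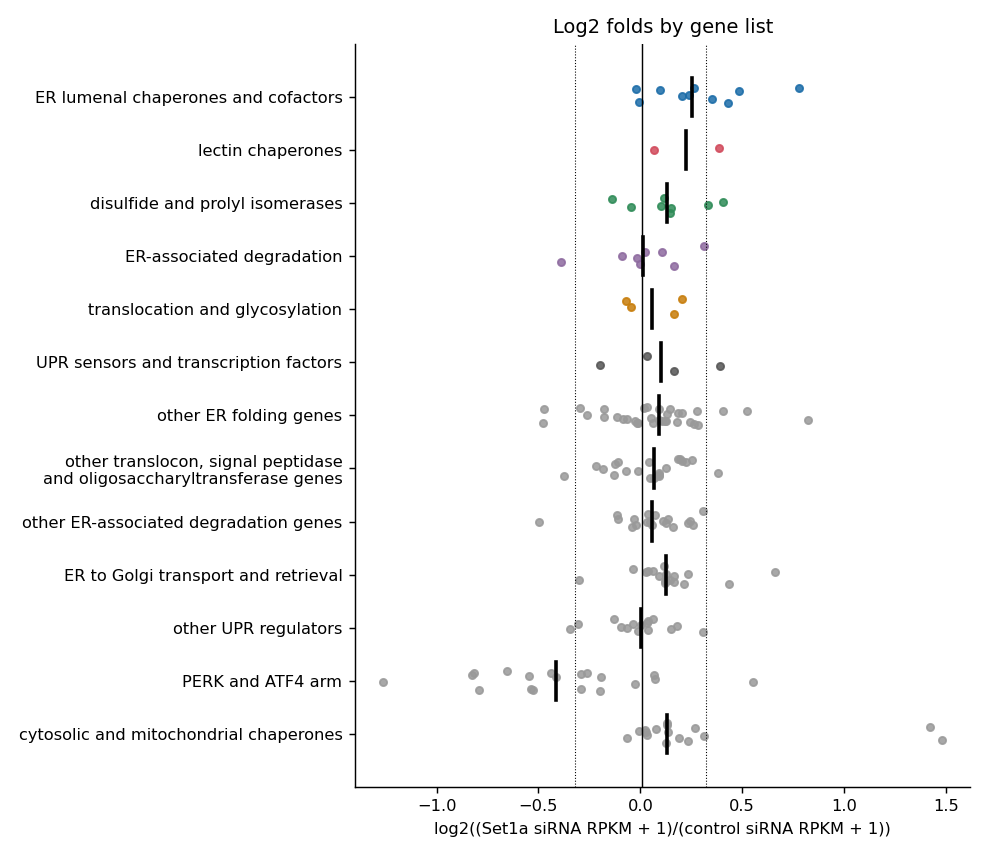
Log2 fold of every gene above 1 RPKM in the 6 role groups (coloured) and 7 further lists (grey), with a black bar for each list's median, a thin line for the median of all genes and dotted lines at the call size of 0.32 either way. The median runs from 0.25 for the lumenal chaperones to -0.42 for the PERK and ATF4 arm.

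The chaperones of the cytosol and mitochondria, taken for contrast, had a median of 0.13 over 16 genes, the same to 2 decimals as the ER genes, but a mean of 0.28, against 0.14 for the ER genes. Of these, 14 (87.5%) were higher, against 51.2% of all genes, and 2 (12.5%) were called higher, against 10.4%. Hspa1b and Hspa1a, near-identical heat shock genes whose reads may be shared, had ratios of 3.88 and 3.75, and Hspa8 had 1.24 (1.22 to 1.26). By the median, this list and the ER genes were shifted alike. The larger mean of this list rested largely on Hspa1a and Hspa1b, with log2 folds of 1.42 and 1.48. Their control levels were only 1.56 and 1.66 RPKM.

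Markers of other cell types that such cultures could hold were also measured. Primitive and parietal endoderm, which secretes basement membrane, was represented by 15 markers, of which 5 were above 1 RPKM. Their summed level was 93.99 RPKM in the control and 107.7 RPKM in the Set1a siRNA library. Col4a1 and Col4a2 had ratios of 1.84 and 1.92, while Afp and Ttr were listed at 0 in both libraries and Gata4, Gata6, Sox17, Sox7 and Foxa2 stayed under 1 RPKM in both. Of 8 trophectoderm markers, Cdx2 and Elf5 were listed at 0 in both libraries, and the sums were 24.6 and 24.3 RPKM. Eomes was called higher, with a ratio of 1.48 (1.06 to 2.11), and Tfap2c, the most abundant of the list, had 0.815 (0.665 to 0.996). Of 10 fibroblast markers 4 were listed at 0 in both libraries, and the sums were 4.65 and 8.67 RPKM. Only Twist1 and Thy1 were above 1 RPKM, and both were called higher, at ratios of 1.96 (1.08 to 3.70) and 1.59 (0.970 to 2.67). Among markers above 1 RPKM, called higher were 2 of 5 for endoderm, 1 of 5 for trophectoderm and 2 of 2 for fibroblasts. Called lower were 0 in each list. Over all genes, 10.4% were called higher and 8.14% lower, and these lists hold few genes. The part of these differences in the ER gene values was not tested. In bulk RNA a change in the share of some cells and a change in RNA per cell cannot be told apart.

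Transcript properties were close to those of other genes. The median length of the 36 transcripts was 2798 bases, against 2787 for all genes above 1 RPKM, and the median GC content was 50.8%, against 50.4%. The 18 longer members had a median log2 fold of 0.10 and the 18 shorter ones 0.17. The 18 members of higher GC content had 0.15 and the 18 of lower GC content 0.09. None of the 36 was near-identical to another listed gene, taken as 90% identity over at least 50% of the shorter transcript. Copies of these genes outside the deposited list were not searched.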

How the data were processed

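Each deposited file held 1 library and paired 28430 RefSeq transcripts with 1 value. No header names the unit, and RPKM was inferred from the deposited values. Value times transcript length fell within 0.1 of a whole read for 74.6% and 74.0% of transcripts with 1 to 5 reads, against 20% at random, and this step gave the depths. The build was mm9 per the submitters' processing notes, which also name SAMtools 0.1.16, TopHat2 2.0.12, TopHat and CASAVA. How reads were counted per transcript, with or without strand, is not given in the sources used here. Reads of overlapping genes on opposite strands may therefore be mixed.

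Symbols, taken from RefSeq (GRCm38.p6) and GENCODE M21, were found for 98.3% of transcripts. Lengths and GC content came from GENCODE M21 (96.9%), so read numbers are approximate. Exact Clopper-Pearson 95% intervals were computed from recovered reads. Genes were compared at a mean of at least 1 RPKM with 1 RPKM added, and a call by size, a log2 fold of 0.32, replaced a test. The members and lists were chosen with earlier results of these data known. The naming rule took all members, up to 3 genes per further list with the largest fold and at least 30 reads, Setd1a, and up to 6 ERSE or ERSE-II promoters by log2 fold. Protein sequence features were planned and were not analysed here. Alternatives varied the pseudocount, floor, scaling, transcript choice, GC and length trend, size rule and summary. Computations used Python 3.11.15, SciPy 1.17.1 and BLAST 2.17.0, and were tested on simulated data.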

Additional observations from a re-analysis of the deposited data

How the results depend on the processing

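The member median fold stayed between 0.11, with the GC and length trend removed, and 0.18, with a floor of 20 RPKM, and was 0.14 as a mean, over the alternatives run for it. The number of members called depended on the size rule and the added value. Against 8 higher and 1 lower, it was 4 and 0 with a pseudocount of 5 RPKM (3.57% and 2.99% of all genes), which lost Dnajb9, Manf, Pdia4, Eif2ak3 and Herpud1. It was 5 and 0 with a floor of 20 RPKM, which leaves 18 members (4.21% and 4.86%), and 16 and 2 when a counting interval that excludes 1 was the rule (12.2% and 11.3%). With a 1.5-fold rule it was 1 (Sdf2l1) and 0, and 1 of 36 is close to the share of all genes, 2.77% higher and 1.75% lower. With a 2-fold rule it was 0 and 0 (0.771% and 0.407%). Syvn1 was called higher with a pseudocount of 0.1 RPKM, with scaling that leaves out the 50 most abundant genes and with RPKM summed over transcripts. Scaling factors were 0.9952 and 1.0124 and could not have reversed Setd1a. The median of the PERK and ATF4 arm was -0.28 with a pseudocount of 5 RPKM, -0.29 with a floor of 5 RPKM and -0.26 with a floor of 20 RPKM. The median of the other degradation genes changed sign, from 0.06 to -0.07, with a floor of 20 RPKM. The cytosolic and mitochondrial chaperones went from 0.13 to 0.28 as a mean, in which Hspa1a and Hspa1b weigh most. The cause of the other changes was not tested, apart from the smaller number of genes that a higher floor leaves. No paired analysis was possible because there was 1 library per group. Depth limits the low genes most, such as Derl3 and Txndc11.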

Other observations

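Several pairs of related ER genes differed in their values; these pairs were chosen after the values were seen, and the differences were not tested. Sdf2l1 had a ratio of 1.78 (1.34 to 2.40), and its paralog Sdf2 had 0.711 (0.574 to 0.874). Kdelr3 had 1.67 (1.21 to 2.29), Kdelr2 had 1.09 (0.902 to 1.31) and Kdelr1 had 1.02 (0.841 to 1.24). Ero1a had 1.34 (1.20 to 1.51) and Ero1b had 1.13 (0.804 to 1.60), although Ero1b is one of the genes with an ERSE in its promoter window.

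Of 6 genes above 1 RPKM outside the members with an ERSE-II, 1 was called higher and 1 lower, with a median log2 fold of -0.10. Nucb1, for a calcium-binding protein of the Golgi, was at 10.1 and 13.8 RPKM, with a ratio of 1.37 (1.09 to 1.71), and Lgalsl had a ratio of 0.748 (0.560 to 0.987). Kdelr3 held the UPRE. Over the 96 genes above 1 RPKM that are no members and held the UPRE, 8 were called higher and 6 lower, with a median log2 fold of 0.01. The counts for both elements stand beside all-gene shares of 10.4% called higher and 8.14% lower.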
